A study of Mus musculus with 36 samples.

Results

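The 39 protein-coding Hox genes of the mouse were followed across 36 bulk RNA-seq libraries of nephron progenitor cells (NPCs), the mesenchymal cells of the embryonic kidney that give rise to nephrons. Members were taken by symbol, as every gene named Hox followed by a cluster letter from a to d and a paralog number, from 30125 genes listed in at least 1 of 3 tables. HoxA on chromosome 6 held 11 of them, HoxB on chromosome 11 held 10, and HoxC on chromosome 15 and HoxD on chromosome 2 held 9 each. Of the members, 38 were listed for wild-type cells, 36 for the β-catenin experiments and 37 for the Tcf/Lef experiment. Of these 31, 29 and 30 had a mean of at least 10 normalised read counts and were tested. Those that were never tested included Hoxc13 and Hoxd13, which fell below that mean in each table, as well as Hoxa13 and Hoxb13. Hoxc12 was listed in none of the tables.

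The cells were primary NPCs from pooled embryonic mouse kidneys, enriched by magnetic depletion of other cell types and grown in nephron progenitor expansion medium with CHIR, an inhibitor of GSK3β that stabilises β-catenin and so raises canonical Wnt signalling. Wild-type cells received no CHIR (0 µM), low CHIR (1.25 µM) or high CHIR (5 µM), with 3 libraries each. β-Catenin was removed in 2 ways, each at low and high CHIR with 2 libraries a group. Cells with a conditional Ctnnb1 allele (B-catenin_c_c) received Cre mRNA or no Cre, and Cas9-eGFP cells received a guide RNA (sgRNA) against Ctnnb1 or a control sgRNA against GFP. In a further set, Cas9-eGFP cells received guides against all 4 Tcf/Lef genes (Tcf7l1, Tcf7l2, Tcf7 and Lef1, here Tcf/Lef knockout) or the GFP sgRNA, over a longer knockout period. The GFP sgRNA groups held 3 libraries at each dose, and the Tcf/Lef knockout 2 at low CHIR (replicates 1 and 3) and 3 at high CHIR. Transfected cells were sorted for a co-delivered mCherry and used as pools. Nothing in the labels says whether replicates came from separate isolations, so the p values measure only the spread between these libraries.

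Hox genes encode homeodomain transcription factors that give cells their position along the body axis. They lie in 4 clusters, and genes at the same place in different clusters (paralog groups) have similar sequence and overlapping roles. Genes at one end of a cluster act anteriorly and those at the other end, from about group 9 on, posteriorly. In the kidney the group 11 genes Hoxa11, Hoxc11 and Hoxd11 act together with Eya1 and Pax2 on Six2 and Gdnf, and kidneys fail to form when the whole group is lost. Group 10 genes pattern the lumbar and sacral axis and the hindlimb, and contribute to the kidney stroma. Hox proteins bind DNA together with TALE homeodomain cofactors of the Pbx, Meis and Pknox families.

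Reads on genes numbered 13651129 to 76071568 per library in the wild-type table, 14537850 to 27838106 in the β-catenin table and 13089780 to 20152719 in the Tcf/Lef table. The 3 tables had been scaled separately, and no test was made across them. A gene is called changed where its Benjamini-Hochberg adjusted p, from limma on log2(normalised count + 1) over all genes of a table, was under 0.05 and its log2 fold change at least 0.5 in size. The guides and Cre were checked on the targeted genes. Ctnnb1 transcript in high CHIR stood at 1629.9 and 1270.1 normalised counts with the Ctnnb1 sgRNA against 2632 and 2701 with the GFP sgRNA, but at 2254 and 2583 with Cre against 2423 and 2207 without, a whole-gene count that includes exons outside the floxed part. Lef1, itself a Wnt target, stood at 102 and 161 with Cre against 1089.9 and 1568 without, and at 279.9 and 119.7 against 1407 and 913 with the sgRNAs. In the Tcf/Lef set at high CHIR, Lef1 was at 255, 441 and 513 in the knockout against 1504, 2743 and 1144 in controls. Lef1, Tcf7l1 and Tcf7l2 were not called in that comparison. Tcf7 was called lower, with a log2 fold change of -1.64 ± 0.31 (SE), adjusted p = 0.0175. Both Lef1 and Tcf7 were called higher in high than in low CHIR in the controls of this set. Whether their lower values in the knockout came from their own guides was not tested. Guide-made deletions need not remove a transcript, so these counts do not measure the loss of protein.

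One wild-type library stood apart. High-CHIR replicate 3 had 372 normalised counts of Hoxa7 against 2192 and 2119 in replicates 1 and 2, 1228 of Hoxa10 against 4606 and 4587, and 425 of Hoxd12 against 103 and 119. Outside the Hox genes it had 623 of Gata3 against 4283 and 4098 and 104 of Lhx1 against 5949 and 6706. Of the other early nephron markers, Pax8, Jag1 and Ccnd1 were also lower in it, with Pax8 at 94.4 against 7800 and 7498. Wnt4, Lef1 and Fgf8 were higher in it. Wnt4 stood at 11108 against 1315 and 1473, and Lef1 at 9125 against 3811 and 4197. The NPC markers of replicate 3 summed to 4387 normalised counts against 8945 and 9811. Among them Sall1 stood at 3197 against 6131 and 6844, Pax2 at 630 against 1368 and 1827, and Itga8 at 142 against 1066 and 674. Other NPC markers were not lower in this way. Six2 stood at 65.4 against 60.5 and 79.6, Cited1 at 102 against 77.3 and 103, and Eya1 at 103 against 84.0 and 86.5. Its early nephron markers, which differed in both directions, summed to 28079 against 35105 and 38733. Hox calls, Hox sums and gene list counts for wild-type high against low CHIR are therefore given with and without it.

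Marker genes of several cell types moved with CHIR. The summed normalised counts of 11 NPC markers ran from 18220.4 to 24036 in wild-type low CHIR and 4387 to 9811 in high CHIR, and 7 of the 11 were called lower, as without high-CHIR replicate 3, when Pax2 was also called higher. Those of 7 early nephron markers ran from 4313 to 8765 and 28079 to 38733, with 4 called higher and 6 without that replicate. Of all 17411 genes tested, 5.33% were called higher and 5.05% lower, and 6.4% and 6.28% without it. For 9 stroma markers the sums were 10258 to 16722 and 3759 to 12343, with Foxd1 alone called lower. In the Tcf/Lef table the stroma sums spread from 288 to 14513 over libraries. For 8 ureteric epithelium markers they were 168 to 583 and 995 to 4979, where Gata3 alone was called, and Ret stood at 4.48, 2.79 and 3.74 in high CHIR. For 7 endothelium markers they were 20.4 to 48.6 and 82.3 to 793, where Tek alone was called and Tie1 was at 0 in all 3 high-CHIR libraries. The 6 blood markers summed to 108 to 129 and 50.4 to 107. In bulk samples fewer cells of a type and less RNA per cell cannot be told apart, and the part of these shifts in the Hox results was not tested.

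RefSeq promoter windows were at hand for 22 of the 39 genes (24 windows, GRCm38.p6, 250 bases before a start site). They were searched on both strands for CTTTGAT and CTTTGAA, the core letters that Tcf/Lef factors bind. Hoxd8 and Hoxd12 held a match, 2 of 24 windows (8.33%), against 2457 of all 32851 windows (7.48%). Of HoxC only Hoxc4 had a window, which lies wholly within annotated exons, and of HoxB only Hoxb1, Hoxb4 and Hoxb8 had one. Most HoxB and HoxC genes were therefore not searched. The CTTTGAT letters alone were in 3.21% and CTTTGAA in 4.46% of all windows. Both windows are printed for that match, and one of the 2 Hoxa10 windows is shown because Hoxa10 was among the 2 most abundant members and has none. Capitals mark the matches, which in Hoxd8 begin 153 and 143 bases before the start and in Hoxd12 34 bases before it. All 3 windows are free of annotated exons. Hoxd8 and Hoxd12 lie on the plus strand and Hoxa10 on the minus strand, each sequence reading 5′ to 3′ towards its gene.
Hoxd8, chr2:74704365-74704614: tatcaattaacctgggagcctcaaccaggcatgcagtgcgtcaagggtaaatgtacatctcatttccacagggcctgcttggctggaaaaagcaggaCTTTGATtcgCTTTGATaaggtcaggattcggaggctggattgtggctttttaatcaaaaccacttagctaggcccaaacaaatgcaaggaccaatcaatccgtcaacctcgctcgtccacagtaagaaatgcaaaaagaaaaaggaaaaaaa
Hoxd12, chr2:74674763-74675012: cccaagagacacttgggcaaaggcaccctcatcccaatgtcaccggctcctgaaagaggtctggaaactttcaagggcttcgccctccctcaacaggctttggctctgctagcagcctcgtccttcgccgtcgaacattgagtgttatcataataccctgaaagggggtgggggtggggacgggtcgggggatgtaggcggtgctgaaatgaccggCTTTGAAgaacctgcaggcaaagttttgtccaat
Hoxa10, chr6:52234940-52235189: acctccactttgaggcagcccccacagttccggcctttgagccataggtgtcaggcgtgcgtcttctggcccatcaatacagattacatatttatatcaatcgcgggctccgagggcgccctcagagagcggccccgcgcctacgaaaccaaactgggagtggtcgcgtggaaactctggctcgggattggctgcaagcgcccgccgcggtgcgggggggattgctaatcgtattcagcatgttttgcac
A match is a run of letters and not a measured binding site. Windows of Hoxa9, Hoxb4, Hoxb8 and Hoxd10 likewise held neither run of letters.

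Per kilobase of exon, posterior genes of group 10 stood above the other members in self-renewing cells. In wild-type low CHIR Hoxc10 led with 3921 ± 316 normalised counts per kb (SD, n = 3), followed by Hoxa10 with 2591 ± 605, Hoxd10 with 836 ± 27.8, Hoxb9 with 568 ± 99.4 and Hoxb7 with 374 ± 69.4. The same 4 genes held the first 4 places in all 4 control groups at low CHIR. These places and the shares below depend on the length used, all annotated exon bases of a gene. That was 5.58 kb for Hoxa9 and 1.816 kb for Hoxd10. In normalised counts Hoxa9 stood at 1657, 2143 and 1410 in wild-type low CHIR, beside 1465, 1566 and 1522 for Hoxd10. The first places did not have a firm order. In the no-Cre controls Hoxa10 stood at 3558 ± 360.3 and Hoxc10 at 3438 ± 129.6 per kb (SD, n = 2), a gap smaller than the spread. The group 10 genes made up 62.4% ± 1.02 of the summed per-kb level of all Hox genes in wild-type low CHIR. Group 11, needed for kidney formation, made up 4.60% ± 0.35 there, and group 9 11.9% ± 0.0942. Anterior genes varied. In normalised counts of the 3 low-CHIR libraries Hoxc4 stood at 247, 291 and 184, Hoxb4 at 187, 225 and 109, and Hoxa2 at 10.5, 38.9 and 32.3. Hoxb3 had 17.1, 24.7 and 18.0 and Hoxd4 19.7, 19.0 and 26.3. Most of the exon bases of Hoxb3 (52.9%), Hoxd3 (62.8%) and Hoxd4 (52.3%) overlap other annotated genes, so the counts of these 3 are uncertain. Hoxa11 shares 35.0% of its exon bases with Hoxa11os on the opposite strand, and the strand setting of the counting is not given in the sources used here.

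High CHIR lowered most of the HoxC cluster in wild-type cells. Of the 7 HoxC genes tested, 6 were called lower, and 7 of all 31 Hox genes were, against 5.05% of the 17411 genes tested. Hoxc4, at the anterior end of the cluster, went from 247, 291 and 184 normalised counts in low CHIR to 22.4, 23.7 and 8.41 in high CHIR, a log2 fold change of -3.76 ± 0.37 (SE), adjusted p = 0.00019. Hoxc6 went from 645, 665 and 588 to 69.5, 53.0 and 49.5, which is 11-fold lower (-3.45 ± 0.20 (SE), adjusted p = 7.4e-06). Both groups were tight, with the high-CHIR libraries far below. Hoxc5 went from 222, 208 and 205 to 16.8, 29.3 and 27.1 (-3.10 ± 0.26 (SE), adjusted p = 8e-05). Hoxc8, which patterns the lower cervical and thoracic axis, went from 715, 583 and 595 to 122, 83.8 and 44.9 (-3.01 ± 0.33 (SE), adjusted p = 0.00035). The posterior HoxC genes had smaller estimates. Hoxc9 went from 490.1, 631 and 519.8 to 248, 233 and 172 (-1.34 ± 0.19 (SE), adjusted p = 0.00189). Hoxc10, the most abundant member per kb in low CHIR, went from 7135, 8180.5 and 7138 to 2086, 2143 and 791, 4.9-fold lower (-2.29 ± 0.31 (SE), adjusted p = 0.0013). Hoxc11 stood at 196, 179 and 147 and 80.7, 141 and 32.7, and its difference of -1.25 ± 0.43 did not pass (adjusted p = 0.0972). The difference in size of fall between HoxC genes was not tested. The 6 HoxC calls held without each of the 6 low- and high-CHIR libraries in turn. Without high-CHIR replicate 3 the estimates were -3.31 ± 0.27 for Hoxc4 (adjusted p = 6.7e-05) and -1.82 ± 0.11 for Hoxc10 (adjusted p = 9.9e-06).

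**Figure D1:**
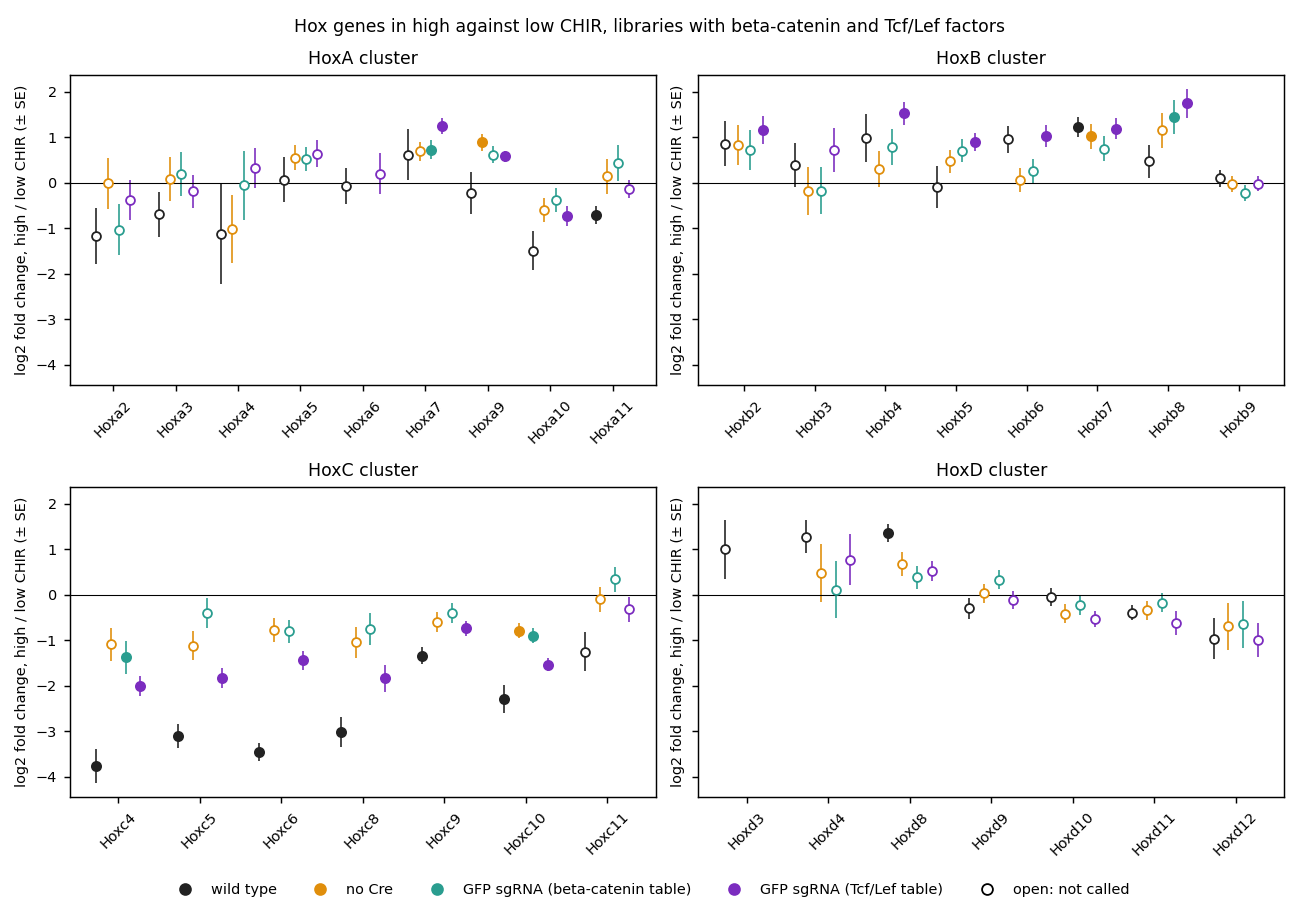
Log2 fold change of each tested Hox gene in high against low CHIR, by cluster and paralog number, in the 4 control sets (wild type, no Cre, GFP sgRNA of the β-catenin table, GFP sgRNA of the Tcf/Lef table), with bars of 1 SE and filled points for called genes. HoxC points lie below 0, from -3.76 for Hoxc4 in wild type, with the exception of Hoxc11 in 1 set, while most HoxB points lie above 0.

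In the other clusters 2 genes were called higher in wild-type high CHIR and 1 lower. The 2 were the only ones of all 31 Hox genes called higher, against 5.33% of all genes. Hoxb7, whose regulatory sequence is used to mark the ureteric epithelium, rose from 509.8, 701 and 521 to 1544, 1482 and 1035 (1.22 ± 0.21 (SE), adjusted p = 0.00454). Hoxd8 rose from 511, 770.0 and 572 to 1342, 1475 and 1918 (1.36 ± 0.19 (SE), adjusted p = 0.00164), and here replicate 3 was the highest. Hoxa11 was the gene called lower outside HoxC, from 459, 609.5 and 622 to 366, 369.9 and 288 (-0.72 ± 0.20 (SE), adjusted p = 0.0431). Its call was lost without any one of 5 of the 6 libraries, low-CHIR replicate 1 being the exception. Without high-CHIR replicate 3, 14 genes were called, 5 higher and 9 lower, where 6.4% and 6.28% of all genes were. The log2 fold changes then were 1.69 ± 0.32 for Hoxb4 (adjusted p = 0.00623), 1.45 ± 0.20 for Hoxa7 (adjusted p = 0.00114) and 1.34 ± 0.18 for Hoxb6 (adjusted p = 0.00108), each rising. Beside the 6 HoxC genes, those called lower in that fit were posterior, at -1.61 ± 0.23 for Hoxd12 (adjusted p = 0.00137), -0.85 ± 0.19 for Hoxa10 (adjusted p = 0.0145) and -0.57 ± 0.14 for Hoxd11 (adjusted p = 0.0208). No longer called was Hoxa11, at -0.60 ± 0.20 (adjusted p = 0.0884). Other posterior genes did not pass there, with Hoxa9 at 0.47 ± 0.17, Hoxb9 at -0.08 ± 0.17, Hoxd9 at -0.49 ± 0.22 and Hoxd10 at -0.31 ± 0.12. With replicate 3 in, Hoxa7 stood at 0.61 ± 0.56, Hoxb4 at 0.98 ± 0.53 and Hoxb6 at 0.95 ± 0.29, none of them called. Hoxd4, with the shared exons, stood at 19.7, 19.0 and 26.3 in low and 57.1, 51.6 and 51.4 in high CHIR and did not pass (1.27 ± 0.37 (SE), adjusted p = 0.0526).

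Removing CHIR changed few Hox genes. Against low CHIR, limma called 0 of 31 genes higher and 2 lower without CHIR (5 in either direction at an unadjusted p under 0.05), where 2.37% and 2.6% of all genes were. Of all 17411 genes, 3884 had such an unadjusted p. Hoxb2, which acts in the hindbrain and is one of the most anterior members detected, fell from 125, 159 and 83.8 in low CHIR to 22.2, 5.85 and 26.8 without CHIR (-2.86 ± 0.49 (SE), adjusted p = 0.0129). This call was lost without low-CHIR replicate 1 or 2. Of its exon bases 27.3% overlap Hoxb3os. Hoxa11 fell from 459, 609.5 and 622 to 268, 362 and 345 (-0.79 ± 0.20 (SE), adjusted p = 0.0477), with no overlap of the groups, but the call was lost without each single library. No group 10 gene was called, with Hoxc10 at 6862, 6954 and 6686 without CHIR and Hoxd10 at 2066, 2163 and 1870.0. HoxC estimates had a median of -0.13, and none of the 7 was called.

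Between the extremes of high and no CHIR, 12 of 31 genes were called, 5 higher and 7 lower, against 11.4% and 12.0% of all genes. Hoxb2 rose the most, from 22.2, 5.85 and 26.8 to 244, 187 and 219 (3.72 ± 0.49 (SE), adjusted p = 0.00052), with low CHIR between, at 125, 159 and 83.8. Also called higher were 1.60 ± 0.19 for Hoxd8 (adjusted p = 0.00031), 1.33 ± 0.21 for Hoxb7 (adjusted p = 0.00143), 1.22 ± 0.36 for Hoxb8 (adjusted p = 0.0332) and 1.05 ± 0.29 for Hoxb6 (adjusted p = 0.0264). The Hoxb6 and Hoxb8 calls were lost without no-CHIR replicate 1 or 3 or high-CHIR replicate 1 or 2. The 6 HoxC genes called were those called against low CHIR, with log2 fold changes from -3.35 for Hoxc4 to -1.53 for Hoxc9. Hoxd11 was the remaining call, falling from 1098, 1253 and 1363 without CHIR to 597, 571 and 848 (-0.90 ± 0.17 (SE), adjusted p = 0.00409). The mean in low CHIR lay between, with libraries at 845, 864 and 899. Without high-CHIR replicate 3, 17 genes were called, among them 2.16 ± 0.32 for Hoxb4 (adjusted p = 0.00097) and 2.18 ± 0.20 for Hoxa7 (adjusted p = 6.6e-05), where 12.2% of all genes were called higher and 12.8% lower.

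The 3 sets of transfected controls gave further high against low CHIR comparisons in libraries apart from the wild-type ones. The GFP sgRNA controls of the Tcf/Lef set, with 3 libraries a dose, had 15 of 30 genes called, 8 higher and 7 lower, against 6.98% and 7.96% of 15878 genes. The same 6 HoxC genes fell as in wild type, which is 85.7% of the 7 called lower in each set. Hoxc4 fell from 131, 138 and 119 to 27.2, 28.3 and 40.4 (-2.00 ± 0.22 (SE), adjusted p = 0.00011), Hoxc8 from 547, 587 and 316 to 155, 149.7 and 94.6 (-1.83 ± 0.30 (SE), adjusted p = 0.00141), and Hoxc5 from 186, 166 and 141 to 48.6, 43.5 and 44.7 (-1.82 ± 0.22 (SE), adjusted p = 0.00019). Hoxc10 fell from 5623, 5891 and 6139 to 1767, 1907 and 2483 (-1.53 ± 0.14 (SE), adjusted p = 2.5e-05), with the doses far apart. Hoxc6 and Hoxc9 changed by -1.44 ± 0.21 and -0.74 ± 0.17. The posterior Hoxc11 stood at 232, 220.1 and 155 and 208, 156 and 124, overlapping between doses. In the other direction 6 of 8 HoxB genes rose. Hoxb8 rose from 58.7, 40.5 and 36.3 to 138, 205 and 120.1 (1.75 ± 0.32 (SE), adjusted p = 0.00295), Hoxb4 from 66.0, 59.2 and 63.1 to 142, 198 and 214 (1.52 ± 0.25 (SE), adjusted p = 0.00166), and Hoxb7 from 285, 356 and 280.1 to 639.5, 783 and 671 (1.18 ± 0.22 (SE), adjusted p = 0.00384). Hoxb2, Hoxb5 and Hoxb6 rose by 1.16 ± 0.30, 0.90 ± 0.20 and 1.02 ± 0.24. Hoxb9, the most abundant HoxB gene, stood at 1534, 1908 and 1532 and 1474, 1698 and 1714 (-0.02 ± 0.16 (SE), adjusted p = 0.955). In HoxA, Hoxa7 rose from 469.6, 297 and 329 to 813, 889.9 and 838 (1.24 ± 0.18 (SE), adjusted p = 0.00067) and Hoxa9, known for its role in blood progenitors, from 964, 1131 and 1015 to 1399, 1689 and 1551 (0.58 ± 0.12 (SE), adjusted p = 0.00837). With the replicate number as a block, 19 genes were called, the added ones being 0.64 ± 0.19 for Hoxa5 (adjusted p = 0.0317), 0.52 ± 0.17 for Hoxd8 (adjusted p = 0.0483), -0.54 ± 0.12 for Hoxd10 (adjusted p = 0.00727) and -0.62 ± 0.15 for Hoxd11 (adjusted p = 0.0129). Of all genes, 9.37% were then called higher and 11.6% lower. The Hoxb2 call was lost without low-CHIR replicate 1 or high-CHIR replicate 1 or 2, and the Hoxb6 call without high-CHIR replicate 2.

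In the β-catenin table, with 2 libraries a group, fewer Hox genes passed. Without Cre, 3 of 29 genes were called, where 2.8% of 16780 genes were called higher and 5.24% lower. Hoxa9 rose from 1206 and 1364 to 2741 and 2051 (0.89 ± 0.18 (SE), adjusted p = 0.0071) and Hoxb7 from 461 and 264 to 747 and 668 (1.02 ± 0.27 (SE), adjusted p = 0.0356), while Hoxc10 fell from 6388 and 6737 to 3903 and 3699.6 (-0.79 ± 0.17 (SE), adjusted p = 0.011). All 7 HoxC estimates lay below 0, with a median of -0.79 beside -0.00 over all genes. In the GFP sgRNA controls 4 of 29 were called, against 2.98% higher and 4.53% lower of all genes. Hoxb8 rose from 31.8 and 34.6 to 98.9 and 85.2 (1.44 ± 0.38 (SE), adjusted p = 0.0358) and Hoxa7 from 566 and 438 to 912 and 743 (0.72 ± 0.20 (SE), adjusted p = 0.0477). Hoxc4 fell from 197 and 177 to 51.0 and 101 (-1.37 ± 0.36 (SE), adjusted p = 0.0346) and Hoxc10 from 6391 and 8287 to 3536 and 4303 (-0.90 ± 0.17 (SE), adjusted p = 0.00528). Hoxc10 was called lower in all 4 control sets. The Hoxa7 and Hoxb8 calls of the GFP sgRNA cells were lost without any one of the 4 libraries, and Hoxc4 kept its call in 1 of 4 such fits. Hoxc10 lost its call without GFP sgRNA low-CHIR replicate 2 or high-CHIR replicate 1. Among the no-Cre cells Hoxc10 lost it without either high-CHIR library, Hoxa9 without replicate 1 of either dose, and Hoxb7 without low-CHIR replicate 2 or either high-CHIR library.

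**Figure D2:**
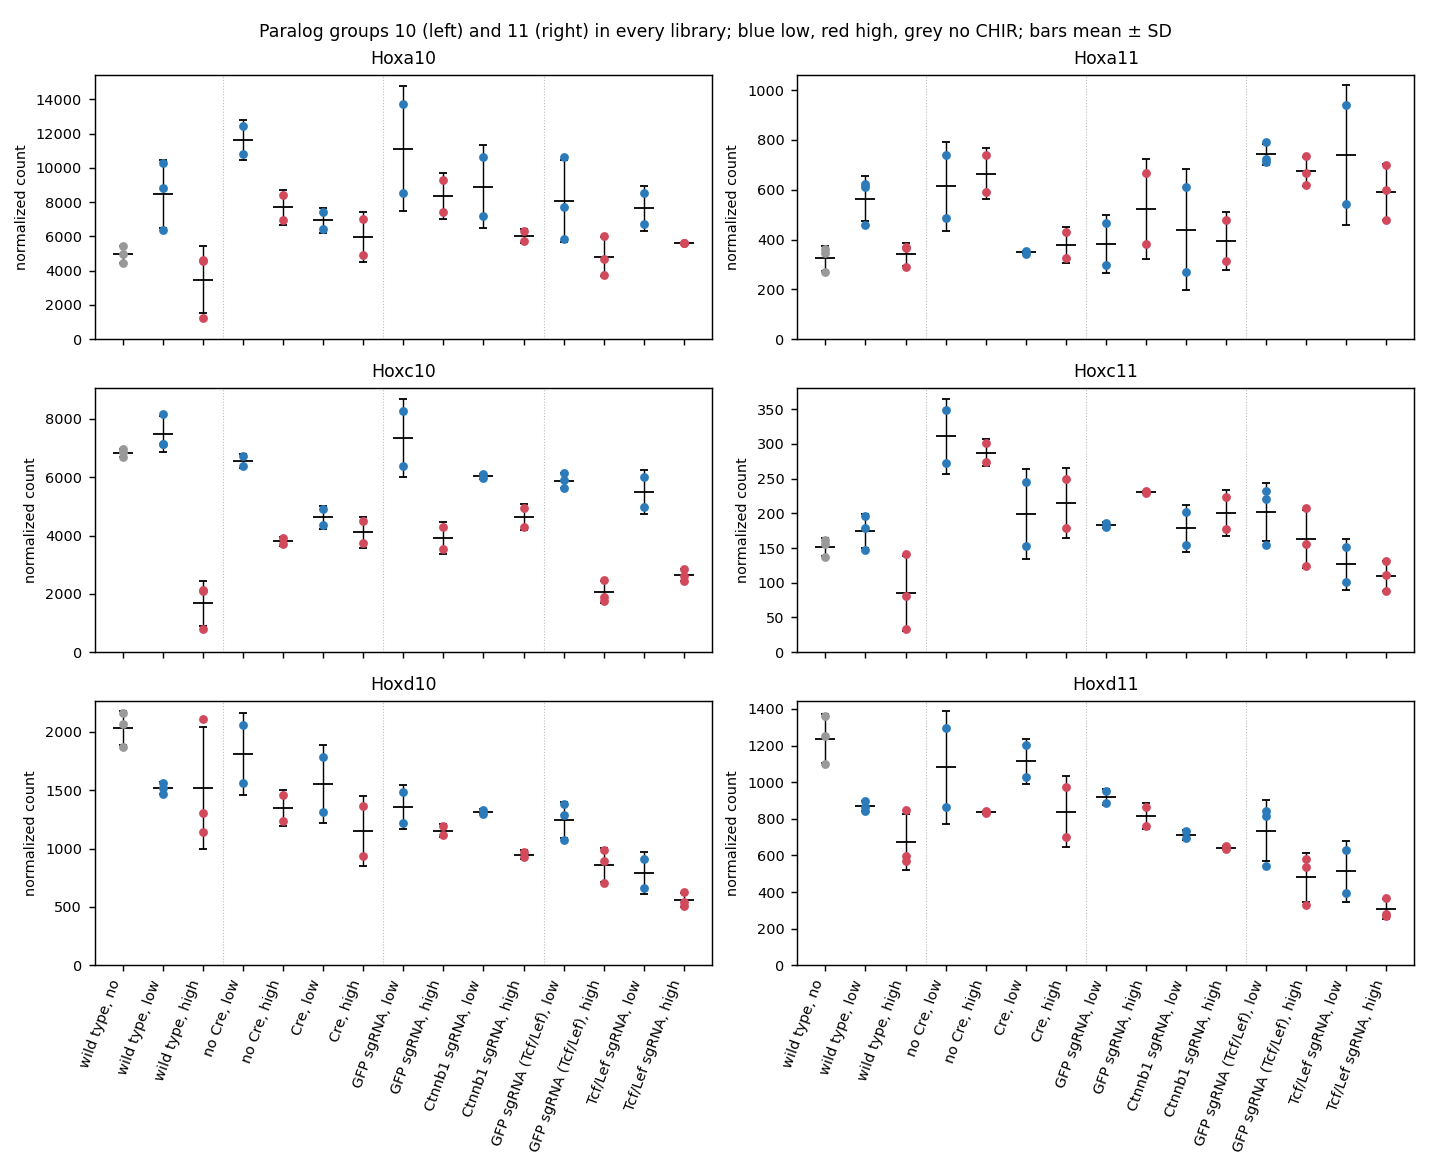
Normalised read counts of the group 10 and group 11 genes in every library (1 point per library, linear axis from 0), by experiment, CHIR dose and knockout, with the mean ± SD of each group. Hoxc10 lies lower in high than in low CHIR in the control groups, and Hoxa11 libraries lie between 268 and 939 in the 36 libraries.

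Of the 3 genes of paralog group 10, Hoxc10 alone was called in high against low CHIR in all 4 control sets, as given above. Hoxa10 in wild type stood at 5419.7, 4438 and 4989 without CHIR, 6348, 10258 and 8816 in low and 4606, 4587 and 1228 in high CHIR. Low CHIR was the highest in each comparison, but with replicate 3 in, the high against low difference of -1.49 ± 0.43 did not pass (adjusted p = 0.0541). In the Tcf/Lef controls Hoxa10 fell from 5872, 7709 and 10636 to 3752, 4650.0 and 6040.0 (-0.73 ± 0.21 (SE), adjusted p = 0.0373), although the lowest low-CHIR library was below the highest high-CHIR one. That call was lost without low-CHIR replicate 2 or 3 or high-CHIR replicate 1 or 2. In the β-catenin controls Hoxa10 stood at 12466 and 10800.2 in low and 8411 and 6965 in high CHIR without Cre, and at 8523 and 13701 (low CHIR) and 7416 and 9301 (high CHIR) with the GFP sgRNA, neither passing. Hoxd10 in wild type stood at 1465, 1566 and 1522 in low and 1142, 1304 and 2110.5 in high CHIR, with overlap and no call. Its Tcf/Lef control values were 1381, 1283 and 1076 (low CHIR) and 989, 893 and 703 (high CHIR). They did not overlap, but the difference of -0.54 ± 0.18 passed only with the replicate block. In the β-catenin table Hoxd10 stood at 1559 and 2059 (low CHIR) and 1236 and 1456 (high CHIR) without Cre, and at 1221 and 1487 (low CHIR) and 1115 and 1194 (high CHIR) with the GFP sgRNA, without a call.

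Group 11 held no gene that changed in every set. Besides the wild-type values above, Hoxa11 stood at 791, 725 and 709.8 in low and 737, 665 and 619 in high CHIR in the Tcf/Lef controls, with log2 fold change -0.14 ± 0.20 (SE), adjusted p = 0.707. It stood at 739.6 and 487 (low CHIR) and 593 and 738 (high CHIR) without Cre and at 299 and 465 (low CHIR) and 381 and 666 (high CHIR) with the GFP sgRNA. The doses overlapped in all 3 sets. Hoxc11 stood at 137, 161 and 156 without CHIR in wild type, at 349 and 273 (low CHIR) and 274 and 301 (high CHIR) without Cre, and at 186 and 179.6 (low CHIR) and 232 and 229.7 (high CHIR) with the GFP sgRNA. None of its differences passed. Hoxd11 stood at 845, 816 and 542 (low CHIR) and 579, 538 and 329 (high CHIR) in the Tcf/Lef controls, at 863 and 1298 (low CHIR) and 829 and 841 (high CHIR) without Cre, and at 951 and 887 (low CHIR) and 763 and 864 (high CHIR) with the GFP sgRNA. High CHIR was lower than low CHIR in the β-catenin controls in each case. None of these Hoxd11 differences passed without the replicate block, and that in the Tcf/Lef controls passed with it, as given above.

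The make-up of Hox transcripts was then followed by summed levels per kb of exon. In wild type the share of group 10 in all Hox genes was 60.5% ± 2.22 (SD, n = 3) without CHIR, 62.4% ± 1.02 in low and 35.0% ± 1.8 in high CHIR (36.0% ± 0.728 without replicate 3, n = 2). It went from 66.0% ± 5.27 to 45.5% ± 5.1 in the Tcf/Lef controls, from 66.7% ± 0.925 to 54.1% ± 0.0573 (SD, n = 2) without Cre, and from 67.4% ± 5.58 to 56.2% ± 0.537 with the GFP sgRNA of the β-catenin table. Hoxc10 and Hoxa10 were the largest terms of these sums in every library except wild-type high-CHIR replicate 3, where Hoxd10 was larger. The shares were not tested. The HoxC sum in wild type was 4447 ± 111 per kb without CHIR, 4880.3 ± 365 in low and 1082 ± 461 in high CHIR (1348 ± 35.7 without replicate 3). The HoxB sum was 1572 ± 171, 1568 ± 185 and 2596 ± 524 (2897 ± 57.4 without replicate 3). Group 11 made up 4.97% ± 0.514, 4.60% ± 0.35 and 4.61% ± 1.05 (4.01% ± 0.182 without it).

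**Figure D3:**
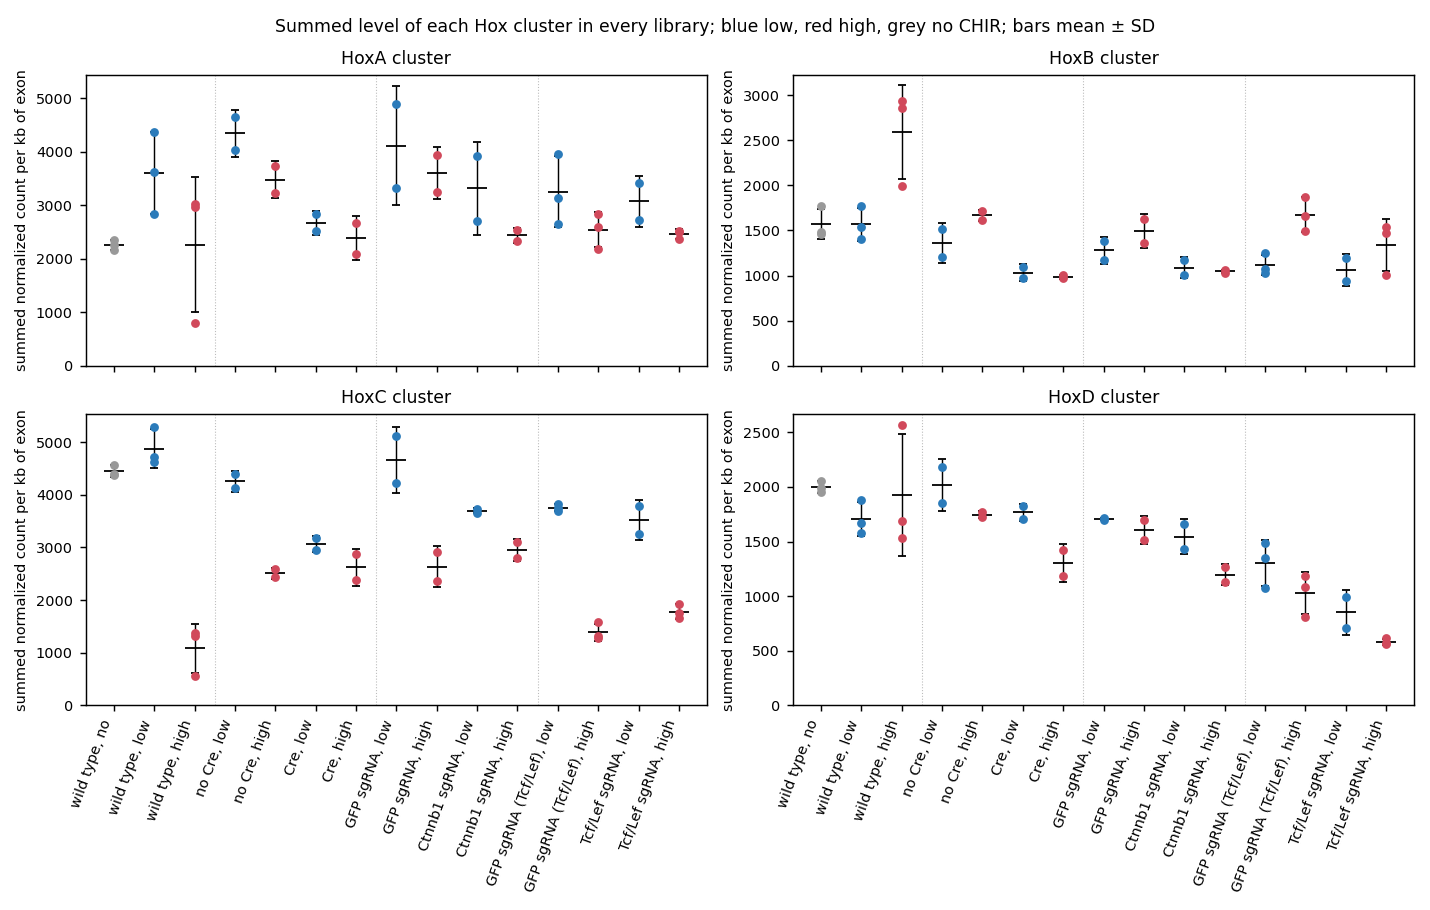
Summed Hox level of each cluster per kb of exon (normalised counts per kb, linear axes from 0) in the 15 groups, with 1 point per library and the mean ± SD of each group. The mean of HoxC is 4880.3 per kb in wild-type low CHIR and 1082 in high CHIR, and the tables were scaled separately.

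Removal of β-catenin in high CHIR lowered Hoxa7, Hoxa9 and Hoxb5 by both means. After Cre, limma called 0 of 29 genes higher and 4 lower, against 5.9% and 2.75% of all genes. After the Ctnnb1 sgRNA, 0 were called higher and 5 lower, against 3.44% and 1.64%. Hoxa7, Hoxa9 and Hoxb5 were called in both. The comparisons share no library, but the spread of each gene comes from the same fit over the β-catenin table. The overlap of calls over all genes was not counted. Hoxa9 stood at 2741 and 2051 without Cre and 990.5 and 953 with Cre (-1.29 ± 0.18 (SE), adjusted p = 0.00049), and at 1884 and 2049 and 996 and 936 with the GFP and Ctnnb1 sgRNAs (-1.02 ± 0.18 (SE), adjusted p = 0.00471). All knockout libraries lay below the high-CHIR controls. Hoxa7 stood at 665 and 693 (control) and 325 and 297 (knockout) (-1.12 ± 0.20 (SE), adjusted p = 0.00322), and at 912 and 743 (control) and 478 and 410.2 (knockout) (-0.89 ± 0.20 (SE), adjusted p = 0.0238). Hoxb5 stood at 575 and 362 (control) and 218 and 232 (knockout) (-1.02 ± 0.25 (SE), adjusted p = 0.0194), and at 415 and 499 (control) and 239 and 228 (knockout) (-0.96 ± 0.25 (SE), adjusted p = 0.0399). Hoxb6 was called after Cre, at 339 and 489.7 (control) and 185 and 228 (knockout) (-0.98 ± 0.26 (SE), adjusted p = 0.0311). The Ctnnb1 sgRNA libraries had 186 and 243 against 335 and 380.0, which did not pass (-0.74 ± 0.26 (SE), adjusted p = 0.126). Hoxb8, a gene of myeloid and mid-axial cells, was called after the sgRNA, at 98.9 and 85.2 (control) and 23.9 and 32.6 (knockout) (-1.68 ± 0.38 (SE), adjusted p = 0.0234). Cre gave 58.9 and 87.1 (control) and 25.2 and 32.8 (knockout) (-1.29 ± 0.38 (SE), adjusted p = 0.0548). Hoxa5, needed in lung development, was called after the sgRNA, at 218 and 263 (control) and 125 and 96.8 (knockout) (-1.11 ± 0.27 (SE), adjusted p = 0.0291). In HoxD, Hoxd8 stood at 963 and 848 (control) and 546 and 463 (knockout) with Cre (-0.84 ± 0.26 (SE), adjusted p = 0.0603), and at 731 and 835 (control) and 468 and 440 (knockout) with the sgRNAs (-0.78 ± 0.26 (SE), adjusted p = 0.101). Over all 29 Hox genes tested, the median log2 fold changes were -0.38 after Cre and -0.38 after the sgRNA, beside -0.02 and -0.00 over all genes.

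HoxC genes did not pass in either knockout in high CHIR. Hoxc10 stood at 3733 and 4484 with Cre against 3903 and 3699.6 without (0.11 ± 0.17 (SE), adjusted p = 0.782), and at 4309.6 and 4941 with the Ctnnb1 sgRNA against 3536 and 4303 (0.24 ± 0.17 (SE), adjusted p = 0.478). The median over 7 HoxC genes was -0.22 after Cre and 0.03 after the sgRNA. Hoxa10 stood at 6993 and 4921 with Cre and 5736 and 6295 with the sgRNA, and Hoxd10 at 939 and 1364 and 973 and 923. Of group 11, Hoxa11 stood at 327 and 429.8 and 313 and 477, Hoxc11 at 179 and 250.1 and 224 and 177, and Hoxd11 at 703 and 976 and 649 and 636. None of these 6 genes passed. With groups of 2 libraries, single libraries decided most calls. Hoxa7 and Hoxa9 kept their calls after Cre without any one library. Hoxb5 kept its Cre call in 1 of 4 such fits and Hoxb6 in 1 of 4. After the sgRNA Hoxa5, Hoxa7, Hoxb5 and Hoxb8 lost theirs without any one of the 4 libraries, and Hoxa9 without Ctnnb1 sgRNA or GFP sgRNA replicate 2. The summed early nephron markers fell as well, from 18933 to 20999 without to 3306 to 3622 with Cre, and from 23787 to 25212 to 5539 to 8043 with the sgRNAs, while stroma sums were 3880.0 to 5639.6 and 7153 to 14335, and 4011 to 13217 and 11819 to 18449. The part of these shifts in the Hox differences was not tested.

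In low CHIR no Hox gene was called after either removal by limma. After Cre 7 of 29 had an unadjusted p under 0.05, as had 1795 of all 16780 genes. For Hox genes edgeR called 0 and DESeq2 1, and limma called 0.328% of all genes. After the Ctnnb1 sgRNA 6 of 29 had such a p, as had 576 of all 16780 genes. For Hox genes edgeR and DESeq2 called 0, and limma called 0.0536% of all genes. Group 10 and 11 values with Cre in low CHIR were 7442 and 6409 for Hoxa10, 4355 and 4914 for Hoxc10, 1316 and 1787 for Hoxd10, 344 and 353 for Hoxa11, 153 and 245 for Hoxc11 and 1029 and 1202 for Hoxd11. None of these passed. With the Ctnnb1 sgRNA they were 7178 and 10644 for Hoxa10, 5958 and 6096 for Hoxc10, 1333 and 1299.5 for Hoxd10, 268 and 612 for Hoxa11, 202 and 154 for Hoxc11 and 694 and 732 for Hoxd11.

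The response to high CHIR within knockout cells was then measured. With Cre, 0 of 29 Hox genes were called in high against low CHIR by limma (2 at an unadjusted p under 0.05, 0 by edgeR and 0 by DESeq2, 0.292% of all genes called). With the Ctnnb1 sgRNA, 0 were called (2 at an unadjusted p under 0.05, 0 by edgeR and 0 by DESeq2, 0.763% of all genes called). Of all 16780 genes, 639 with Cre and 1578 with the sgRNA had such an unadjusted p. Hoxc10 stood at 4355 and 4914 and 3733 and 4484 in low and high CHIR with Cre. The share of group 10 in the per-kb sum was 63.3% ± 2.58 and 63.2% ± 1.15 (SD, n = 2) with Cre, and 68.4% ± 1.95 and 62.7% ± 2.16 with the Ctnnb1 sgRNA. A call in controls and none in knockouts is not a difference between them. The interaction itself, the CHIR response with removal less that without, was called for 0 of 29 genes by limma in both lines. After Cre 4 and after the sgRNA 3 had an unadjusted p under 0.05, with 0 called by edgeR and 0 by DESeq2, and 0.995% and 0.518% of all genes were called. Of all 16780 genes, 1428 and 1159 had such an unadjusted p. HoxC interaction estimates were above 0 in 7 of 7 genes for Cre (median 0.27) and 6 of 7 for the sgRNA (median 0.48). HoxB estimates were below 0 in 8 of 8 and 6 of 8. The medians over all genes were 0.03 and -0.01. The control response enters each estimate with a minus sign, and genes of a cluster are not replicates. The signs were not tested, so no difference is read from them. Hoxa9 had -0.86 ± 0.25 (SE), adjusted p = 0.194, after Cre and -0.57 ± 0.25 (SE), adjusted p = 0.696, after the sgRNA.

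Tcf/Lef knockout in high CHIR raised Hoxc4 and Hoxc5 and lowered Hoxa9, Hoxd8 and Hoxd9. Of 30 genes tested 2 were called higher and 3 lower, against 2.05% and 0.491% of 15878 genes. Hoxc4 rose from 27.2, 28.3 and 40.4 with the GFP sgRNA to 70.4, 81.0 and 75.2 in the knockout (1.23 ± 0.22 (SE), adjusted p = 0.0133), and Hoxc5 from 48.6, 43.5 and 44.7 to 105, 118 and 83.9 (1.14 ± 0.22 (SE), adjusted p = 0.018). Both stayed below the low-CHIR controls, at 131, 138 and 119 and 186, 166 and 141. Hoxd8 fell from 551, 580.5 and 385 to 198, 264 and 198 (-1.19 ± 0.22 (SE), adjusted p = 0.0161), and Hoxd9 from 462, 393 and 338 to 179.9, 165 and 214 (-1.09 ± 0.20 (SE), adjusted p = 0.0151). Hoxa9 fell from 1399, 1689 and 1551 to 984, 1046 and 996 (-0.61 ± 0.12 (SE), adjusted p = 0.0251), and it was the member called lower in all 3 removals in high CHIR. In these 5 genes the groups did not overlap, as was so for 11.1% of all genes upwards and 8.8% downwards. Of the 11 NPC markers 4 were called higher in the same comparison, among them Osr1 (2.18 ± 0.30 (SE), adjusted p = 0.00289) and Six2 (1.64 ± 0.33 (SE), adjusted p = 0.0226), while their sums were 14661 to 16035 in controls and 14057 to 16108 in the knockout. The early nephron sums were 22769 to 40101 and 14524 to 25907, with Ccnd1 alone called, higher, and the stroma sums 288 to 3786 and 657 to 8597, with 0 called by limma. The part of these shifts in the Hox differences was not tested. Same-numbered libraries of this set deviated together, and with the number as a block 10 genes were called, 4 higher and 6 lower. Of all genes 5.3% were then called higher and 2.14% lower. The added genes were 0.81 ± 0.21 for Hoxc6 (adjusted p = 0.0368), 0.76 ± 0.17 for Hoxc8 (adjusted p = 0.0213), -0.99 ± 0.19 for Hoxa5 (adjusted p = 0.0101), -0.62 ± 0.12 for Hoxd10 (adjusted p = 0.0105) and -0.62 ± 0.15 for Hoxd11 (adjusted p = 0.0318). Without the block each of the 5 calls was lost when some single libraries were left out, and without GFP sgRNA high-CHIR replicate 2 all of them were lost. Hoxc4 also depended on knockout replicates 2 and 3, Hoxc5 on knockout replicates 1 and 2, Hoxa9 on all 3 knockout libraries, Hoxd8 on GFP replicate 1 and knockout replicates 1 and 3, and Hoxd9 on GFP replicate 1 and knockout replicates 1 and 2.

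**Figure D4:**
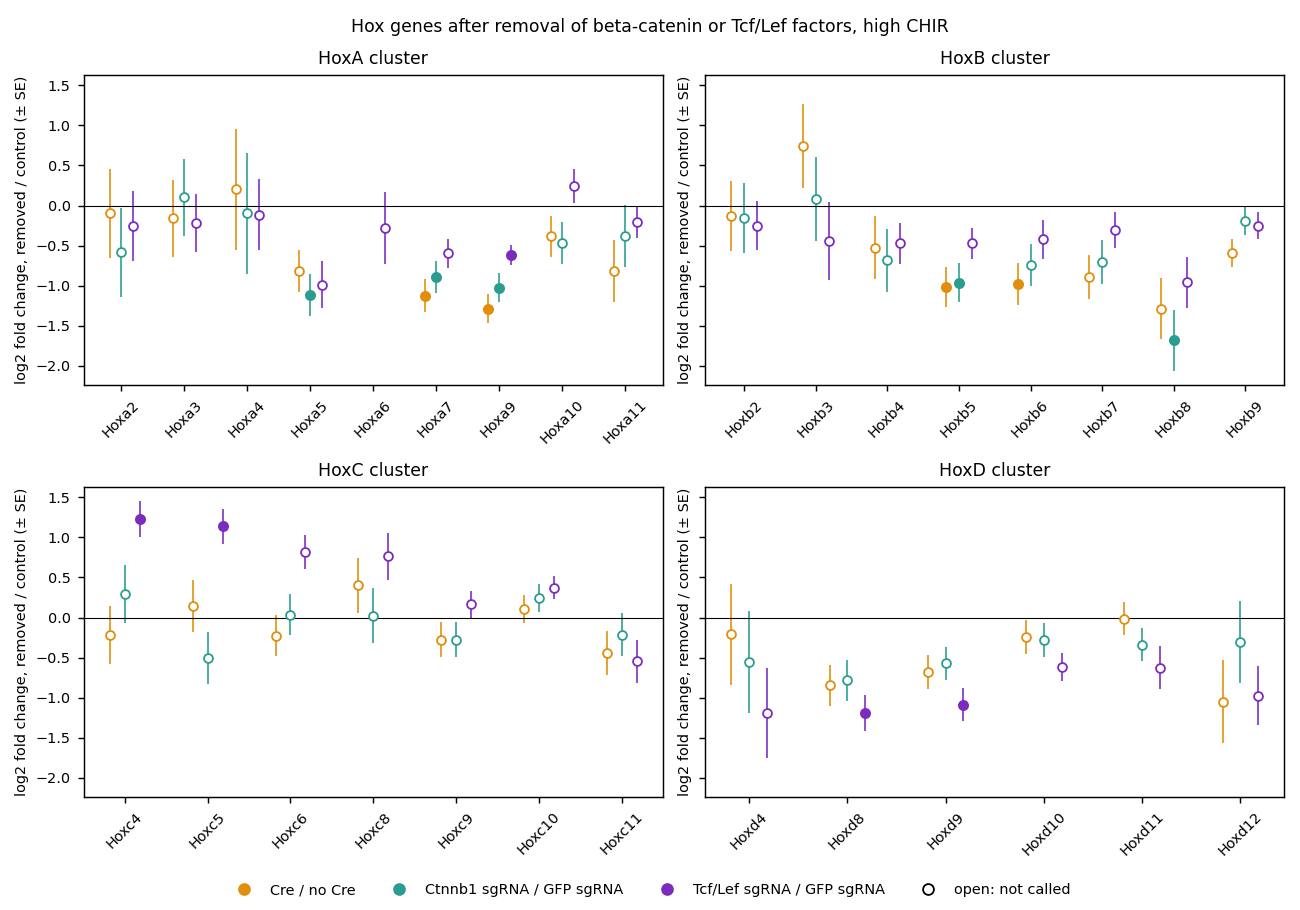
Log2 fold change of each tested Hox gene after each removal in high CHIR (Cre, Ctnnb1 sgRNA, Tcf/Lef sgRNAs, each against its own control), by cluster and paralog number, with bars of 1 SE and filled points for called genes. Hoxa9 lies below 0 in all 3, at -1.29, -1.02 and -0.61, and Hoxc4 and Hoxc5 lie above 1 after the Tcf/Lef sgRNAs.

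Without the block, no group 10 or group 11 gene was called after Tcf/Lef knockout in high CHIR. Hoxa10 stood at 5586, 5599 and 5603, Hoxc10 at 2840.5, 2436 and 2623 and Hoxd10 at 626, 506 and 542, the last below every control library (-0.62 ± 0.18 (SE), adjusted p = 0.104). Hoxa11 stood at 477, 597 and 698, Hoxc11 at 131, 111 and 87.7 and Hoxd11 at 369, 271 and 279. Hoxd10 and Hoxd11 passed with the block and not without it. In low CHIR 3 of 30 Hox genes had an unadjusted p under 0.05, beside 706 of all 15878 genes. No Hox gene was called there by limma (0 by edgeR and 0 by DESeq2, 0.0063% of all genes called). There the knockout libraries had 6721 and 8561 of Hoxa10, 4962 and 6018 of Hoxc10, 914 and 662 of Hoxd10, 541 and 939 of Hoxa11, 152 and 101 of Hoxc11 and 632 and 394 of Hoxd11. The estimate for Hoxd10 there was -0.67 ± 0.20 (SE), adjusted p = 0.904.

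Within knockout cells high CHIR lowered 1 of 30 genes, Hoxc10, from 4962 and 6018 to 2840.5, 2436 and 2623 (-1.06 ± 0.16 (SE), adjusted p = 0.0043), where 1.42% of all genes were called higher and 1.12% lower. This call was lost without knockout low-CHIR replicate 3. With the replicate block 4 were called, adding -0.99 ± 0.22 for Hoxc5 (adjusted p = 0.023), -0.86 ± 0.20 for Hoxc8 (adjusted p = 0.0282) and -0.75 ± 0.18 for Hoxd11 (adjusted p = 0.0307), beside 3.19% of all genes called higher and 2.81% lower. The share of group 10 in the per-kb sum went from 66.3% ± 1.63 (SD, n = 2) to 55.3% ± 4.05 (SD, n = 3). The interaction was called for 0 of 30 genes by limma (8 at an unadjusted p under 0.05, 0 by edgeR, 1 by DESeq2, 0.126% of all genes called). Of all 15878 genes, 809 had such an unadjusted p. Estimates were above 0 in 7 of 7 HoxC genes and below 0 in 8 of 8 HoxB genes, beside a median of -0.01 over all genes. Here too the control response enters with a minus sign, and the signs were not tested. Hoxc4, the gene DESeq2 called, was at 1.43 ± 0.34 (SE), adjusted p = 0.203 in limma.

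Of the 9 TALE cofactor genes, 0 were called higher and 1 lower in wild-type high against low CHIR, and 1 higher and 4 lower in the Tcf/Lef controls, where 5.33% and 5.05%, and 6.98% and 7.96%, of all genes were. Without wild-type high-CHIR replicate 3, 0 were called higher and 3 lower, Meis2, Meis3 and Pknox2, against 6.4% and 6.28% of all genes. Meis2 stood at 366, 248 and 1695 in the 3 high-CHIR libraries. With all libraries the median log2 fold changes of the list were -0.76 and -0.46, beside 0.01 and 0.00 over all genes tested. Pknox2 fell from 329.8, 273 and 319 to 99.7, 33.5 and 83.2 in wild type. In the Tcf/Lef controls Meis2 changed by -1.56 ± 0.19 (adjusted p = 0.00024), and Pbx3 changed by 0.94 ± 0.20 (adjusted p = 0.00699). In wild type Pbx3 stood at 481, 575 and 590 in low and 453, 479 and 59.8 in high CHIR. It was not called there, with or without replicate 3. Pbx3 was called lower after each removal in high CHIR, at -1.08 ± 0.17 (adjusted p = 0.0012) after Cre, -0.79 ± 0.17 (adjusted p = 0.0172) after the Ctnnb1 sgRNA and -0.96 ± 0.20 (adjusted p = 0.0261) after the Tcf/Lef sgRNAs. The Polycomb, trithorax and insulator list, of genes which keep Hox clusters silent or active, had 17 tested. Of these 0 were called in wild-type high against low CHIR by limma, with or without replicate 3. With it 4 had an unadjusted p under 0.05, as had 4326 of all 17411 genes, and the median of the list was -0.05. Ezh2 alone was called, higher, in the Tcf/Lef controls. In wild-type no against low CHIR, Ezh2 (-1.09 ± 0.17, adjusted p = 0.00994) and Cbx2 (-0.92 ± 0.23, adjusted p = 0.0491) were called lower, as were 2.6% of all genes. In high against no CHIR, Ezh2, Cbx2 and Kdm6b were called higher and Ring1 lower, beside 11.4% and 12.0% of all genes.

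Of the axial inputs to Hox genes, 6 were tested in wild type, with 1 called higher and 0 lower in high against low CHIR and a median of -0.18. Without high-CHIR replicate 3, 1 was called higher and 1 lower, Cyp26a1 and Rarb. Of all genes, 5.33% were called higher and 5.05% lower, and 6.4% and 6.28% without that replicate. Aldh1a2, which makes retinoic acid, an inducer of anterior Hox genes, rose from 1205 and 1655 to 11530.4 and 9234 without Cre, and with Cre in high CHIR it stood at 1893 and 1854. It rose from 1135, 921 and 1530.2 to 9966, 5788 and 7479 in the Tcf/Lef controls and stood at 2286, 2057 and 3516 in the knockout. In wild type it stood at 3173, 2789 and 2426 and 1656, 1372 and 3320.0, not called. Cyp26a1, which breaks retinoic acid down, stood at 0, 0.95 and 0 in wild-type low CHIR and 197, 141 and 1.87 in high CHIR.

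Of the 8 partners and targets of the group 11 genes in kidney, 5 were called lower and 0 higher in wild-type high against low CHIR, and 4 lower and 1 higher in the Tcf/Lef controls, with medians of -3.40 and -0.99. The shares of all genes are those given for the TALE list, and all 8 genes are also in the NPC marker list, so these counts repeat part of it. Without wild-type high-CHIR replicate 3 the same 5 were called lower, and Pax2 higher. Six2, the self-renewal factor of NPCs, fell from 2716, 2979 and 3072 to 60.5, 79.6 and 65.4 in wild type and Eya1 from 3317, 3478 and 3904 to 84.0, 86.5 and 103. Pax2 rose in the Tcf/Lef controls from 389, 216 and 222 to 1149, 1287 and 928.

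Of 11 non-coding genes of the clusters, 9 were tested in wild type, with 1 called higher and 1 lower and a median of -0.21 in high against low CHIR. Hoxb5os fell from 1248, 1531 and 1561 to 528, 416 and 681, while Haglr rose from 26.3, 38.9 and 28.7 to 60.5, 68.4 and 92.5. Without high-CHIR replicate 3 Hoxb5os alone was called. For this list and the genes beside the clusters below, the shares of all genes were 5.33% higher and 5.05% lower. Without that replicate they were 6.4% and 6.28%. Hoxa11os, opposite Hoxa11, fell after Cre at both doses, from 1127 and 940.4 to 622 and 442 in low and from 971 and 1013 to 476 and 458 in high CHIR. With the Ctnnb1 sgRNA in high CHIR it stood at 769 and 665 against 1060.3 and 1098 and was not called. If counted without strand, reads of Hoxa11 and Hoxa11os cannot be told apart where they overlap. Of 12 genes beside the clusters, 9 were tested in wild type, and 1 was called higher and 1 lower in high against low CHIR, with a median of 0.36. Without replicate 3, 2 were called higher, Evx1 and Skap1, and 0 lower. Evx1, next to HoxA, stood at 0, 0 and 0 in low and 28.0, 8.38 and 173 in high CHIR, and Mtx2, next to HoxD, at 542, 345 and 408 without CHIR and 1229.9, 1337 and 1315 in low CHIR.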

How the data were processed

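Total RNA of cultured nephron progenitor cells was sequenced in 36 libraries (15 groups, SMARTer kit). According to the submitters' processing notes the tools were bcl2fastq, STAR, featureCounts, Salmon and DESeq2. The authors deposited 3 tables of normalised counts (a signal, reads divided by a size factor) on GRCm38 genes. Multiples of what 1 read is worth gave back whole reads for 100.0% of values (tolerance 0.02 reads). The 8 tables of comparisons, with 50 further per-sample columns, hold the authors' fold changes and p values and were not used.

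limma 3.58.1 (R 4.3.3, trended variance) was run on log2(normalised count + 1) of genes with a mean of at least 10, over all libraries of a table, with Benjamini-Hochberg adjustment. All fold changes are on that scale, which understates those of low genes. In the alternatives the pseudocount was 5, no genes were filtered, values were rescaled by TMM, or reads were tested by edgeR 4.0.16 and DESeq2 1.42.0; the fits were checked on simulated data. Further alternatives left out each library, used the replicate block, used only the groups compared, or set the log2 threshold at 1. In the Tcf/Lef set, same-numbered libraries deviated together (correlations 0.249 to 0.637), so the pairing comes from the data and blocked values are given. Exon lengths and overlaps came from GENCODE vM21. Names covered 25701 of 25760, 26800 of 26863 and 26407 of 26472 gene IDs. Library values are given for groups 10 and 11, and up to 20 called members per comparison and 4 called genes per list are named; some further values were chosen after they were seen. Not every member is reported here by name. Members and lists were chosen with earlier results of these data known.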

Additional observations from a re-analysis of the deposited data

Results flagged for a closer look

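Among the Hox genes and the lists of their cofactors, regulators, inputs, kidney partners, non-coding genes and neighbours, 3 differences in CHIR response between β-catenin removal and control passed the interaction test in limma. They were in Osr1 and Aldh1a2, and 0 were in a Hox gene. The log2 change of Osr1 in high against low CHIR was 4.14 ± 0.46 (SE, adjusted p = 0.00042) more positive with Cre than without, and 3.39 ± 0.46 (adjusted p = 0.0041) more positive with the Ctnnb1 sgRNA than with the GFP sgRNA. Osr1, a kidney progenitor factor that is also in the NPC marker list, stood at 115 and 79.9 normalised counts without Cre and 1765 and 2512 with Cre in high CHIR. For Aldh1a2 the interaction was -2.64 ± 0.45 (SE, adjusted p = 0.011) with Cre. In the lists of cell type markers and targeted genes, Cited1, Jag1 and Tcf7l1 also passed with Cre, and Cited1 with the Ctnnb1 sgRNA.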

How the results depend on the processing

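Of 60 called gene results, 0 reversed. With every library kept they held in 381 of 392 alternative fits, and with 1 library left out in 235 of 327.

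The number of Hox genes called moved as follows. In no against low CHIR (2) it was 1 without a filter, 1 with TMM, 1 with edgeR and 5 with only the groups compared. In the GFP sgRNA controls of the β-catenin table (4) it was 2 without a filter. DESeq2 gave 1 for Cre in low CHIR (0), 10 for Cre in high CHIR (4), 8 for CHIR without Cre (3), 9 for Tcf/Lef knockout in high CHIR (5), 6 for CHIR in the Tcf/Lef knockout (1) and 1 for its interaction (0). Leaving out 1 library gave 8 to 14 for wild-type high against low CHIR (9), 0 to 1 for no against low (2), 10 to 17 for high against no CHIR (12), 2 to 3 for Cre in high CHIR (4), 0 to 1 for the Ctnnb1 sgRNA in high CHIR (5), 1 to 3 for CHIR without Cre (3), 0 to 3 with the GFP sgRNA (4), 0 to 6 for Tcf/Lef knockout in high CHIR (5), 12 to 16 for CHIR in its controls (15) and 0 to 2 in the knockout (1). A group left with 1 library is assumed to vary like the others. Calls over all genes moved too. For no against low CHIR they were 412 higher and 453 lower, and 736 and 831 with only the groups compared. For Cre in high CHIR they were 990 and 462, and 1307 and 653 with DESeq2. For wild-type high against low CHIR they were 928 and 880. Those went from 519 and 476 without low-CHIR replicate 3 to 1114 and 1093 without high-CHIR replicate 3. Apart from the sample or gene numbers that an alternative itself changes, the cause was not tested.

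With the replicate block, Hox counts were 2 for Cre in low CHIR, 12 for Cre in high CHIR, 8 for the Ctnnb1 sgRNA in high CHIR, 11 for CHIR without Cre, 8 with the GFP sgRNA, 1 with Cre, 1 with the Ctnnb1 sgRNA, 10 for Tcf/Lef knockout in high CHIR and 4 for CHIR in that knockout. Calls over all 16780 genes of the β-catenin table rose with the block as well. Higher and lower calls went from 30 and 25 to 274 and 239 for Cre in low CHIR. In high CHIR they went from 990 and 462 to 1718 and 921 for Cre. They went from 578 and 276 to 1333 and 800 for the Ctnnb1 sgRNA in high CHIR. Without Cre the CHIR calls went from 470 and 880 to 1014 and 1647. In the labels, wild-type and β-catenin libraries share only a replicate number, as those of the Tcf/Lef set do. The correlations of deviations ran from -0.0156 to 0.272 in wild type, and in the β-catenin table, with 2 pairs each, from 0.142 to 0.518. The β-catenin values overlap the 0.249 to 0.637 of the Tcf/Lef set, and whether the β-catenin libraries were paired was not settled. Members with a mean under 10 counts were left out by the filter. Without it, Hoxd1 was the one of them called, higher in high against no CHIR.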
